A study of Rattus norvegicus with 10 samples.

Results

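The genes described here take cholesterol into the liver, sense sterols in its cells and send sterols out again. They are Srebf2, Insig1, Insig2, Scarb1, Abca1, Abcg5 and Abcg8, and they were chosen by name, for their roles, with earlier results of these data known. The array annotation gives these 7 genes 13 of the 31042 probe sets that are not controls, and 14217 genes are named by a single symbol on the array in all. Abca1 has 4 probe sets, Srebf2, Insig2 and Scarb1 have 2 each, and Insig1, Abcg5 and Abcg8 have 1 each. The dimmer Srebf2 probe set (1377489_at) fell under the brightness filter, which left 12 for the tests.

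Liver RNA of male Wistar rats, an outbred laboratory strain, was measured on 10 Affymetrix arrays, 2 for each of 5 diets. One diet was standard chow, and the others drew 42% of their energy from fat, with olive oil, lard, fish oil (named cod liver oil in the design text) or coconut fat as the source. Feeding lasted 12 weeks in all groups and ended with an overnight fast, and no genetic change or drug is named. The age of the rats, the fat share of chow and whether RNA was pooled are not given in the sources used here, so the p-values below cover the spread between the deposited samples, which may be technical.

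Cells hold their free cholesterol nearly constant through a feedback loop in the endoplasmic reticulum. When sterols are scarce, the escort protein Scap carries the membrane-bound precursor of SREBP-2, the product of Srebf2, to the Golgi, where proteases release a transcription factor that switches on cholesterol synthesis and lipoprotein uptake. When sterols are plentiful, Insig1 and Insig2 hold Scap back and speed the breakdown of HMG-CoA reductase, and oxysterols activate the nuclear receptor LXR, which switches on the exporters Abca1, Abcg5 and Abcg8. The liver is also where HDL cholesterol is taken up through Scarb1 and where sterols leave the body in bile.

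For the genes on which the results turn, the RefSeq promoter windows (GRCr8, 250 bases before the start site and 50 from it on) are shown in lower case. Capitals mark, on either strand, CACCCCA, the core of a classical sterol regulatory element, CCAAT, the NF-Y box, and CACGTG, an E-box. Of the 7 genes, 6 have a window in that table. Srebf2 and Insig1 are shown because both were lowest on the same array, Insig2 because it gave the smallest p, and Abcg5 because its window is nearly that of Abcg8. In order, they lie at chr7:115543057-115543356 on the plus strand, chr4:8057720-8058019 on the minus strand, chr13:35040049-35040348 on the minus strand and chr6:15717686-15717985 on the plus strand.
Srebf2: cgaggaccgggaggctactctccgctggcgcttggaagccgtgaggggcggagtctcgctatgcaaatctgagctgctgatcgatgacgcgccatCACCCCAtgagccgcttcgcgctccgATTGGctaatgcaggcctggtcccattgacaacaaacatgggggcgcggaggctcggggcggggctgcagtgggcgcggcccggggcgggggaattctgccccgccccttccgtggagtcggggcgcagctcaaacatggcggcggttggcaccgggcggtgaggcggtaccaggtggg
Insig1: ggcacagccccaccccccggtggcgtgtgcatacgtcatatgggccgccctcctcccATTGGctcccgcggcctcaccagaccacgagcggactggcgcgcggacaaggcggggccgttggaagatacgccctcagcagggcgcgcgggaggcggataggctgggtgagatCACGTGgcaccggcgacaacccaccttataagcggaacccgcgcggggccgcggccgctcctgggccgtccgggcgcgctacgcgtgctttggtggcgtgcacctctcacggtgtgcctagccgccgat
Insig2: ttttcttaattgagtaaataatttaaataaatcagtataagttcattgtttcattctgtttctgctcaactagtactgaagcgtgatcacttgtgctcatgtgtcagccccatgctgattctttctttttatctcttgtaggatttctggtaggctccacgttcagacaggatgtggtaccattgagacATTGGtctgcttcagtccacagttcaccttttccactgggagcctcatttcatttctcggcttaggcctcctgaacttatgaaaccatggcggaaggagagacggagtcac
Abcg5: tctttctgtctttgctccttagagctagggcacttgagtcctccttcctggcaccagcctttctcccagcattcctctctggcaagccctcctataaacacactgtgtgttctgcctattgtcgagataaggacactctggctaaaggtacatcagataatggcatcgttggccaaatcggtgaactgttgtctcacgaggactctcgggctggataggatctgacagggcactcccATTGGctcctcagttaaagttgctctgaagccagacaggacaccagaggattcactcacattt

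The Srebf2 window holds CACCCCA at -155 and, on the other strand, CCAAT at -129, and the Insig1 window holds CCAAT on the other strand at -193 and CACGTG at -79. Positions are those of the first base in the printed strand, counted from the start site. CACCCCA was found in 6.93% of 33469 promoter windows, CACGTG in 6.42% and CCAAT in 37.5%. The Sp1 box GGGCGG, in 33.1% of all windows, occurs 5 times in the Srebf2 window, 1 time in that of Insig1 and in neither the Insig2 nor the Abcg5 window. The Insig2 window is poor in G and C (42% against a median of 51.7% over all windows), has 1 CCAAT box, and lies inside the annotated span of Insig2 (chromosome 13, 35025160 to 35052937). The Srebf2 window likewise lies inside the annotated span of Srebf2, given below. On the minus strand the annotated Insig2 gene begins at 35052937, upstream of the start site used for its window (35040098). Whether the Insig2 window acts as a promoter in these livers was not tested. Abcg5 and Abcg8 are read away from each other from start sites that are 205 bases apart, so that their windows share 295 of 300 bases and the same CCAAT box. On GRCr8 the annotated genes span chr7:115542774-115600945 for Srebf2, chr4:8049339-8057812 for Insig1, chr12:36957302-37023982 for Scarb1, chr5:72473676-72596563 for Abca1, chr6:15717936-15743376 for Abcg5 and chr6:15698448-15717730 for Abcg8. A pair of AGGTCA copies in the same direction with 4 bases between them, a form of the LXR element, is in none of the 6 windows and in 0.00598% of all.

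In 7 comparisons, 0 of the 12 tested probe sets had an adjusted p under 0.05 in limma. These were a test for any difference among the 5 diets, each high-fat diet against chow, fish oil against the mean of lard, olive oil and coconut fat, and the mean of the 4 high-fat diets against chow. The last was added after the values were seen. Over all 18625 tested probe sets, 0.14% passed for any difference, 0.0161% for lard, 0.0268% for olive oil, 0% for coconut fat and 0.156% for fish oil against chow. For fish oil against the other fats 0.424% passed, and for the 4 high-fat diets against chow 0.0376%. At an unadjusted p under 0.05 in limma, the 12 member probe sets gave 2 with lard, 5 with olive oil, 2 with coconut fat, 2 with fish oil, 2 for fish oil against the other fats, 2 for the 4 high-fat diets and 2 for any difference. The 5 with olive oil were both of Insig2, 1 each of Scarb1 and Abca1, and Abcg5. The same rule took 7.99%, 8.38%, 5.43%, 7.63%, 11.8%, 6.66% and 9.4% of all tested probe sets. The median log2 fold change of the 12 lay between -0.23 with olive oil and -0.07 with lard against chow, beside 0.02 and 0.04 over all tested probe sets.

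Counting probe sets on which both arrays of a diet lay below both chow arrays, the 12 gave 2 with lard, 4 with olive oil, 2 with coconut fat and 2 with fish oil, and over all tested probe sets the shares were 16.7%, 17.5%, 19.2% and 19%. Those with both arrays above chow were 0, 4, 2 and 3 in the same order, beside 23%, 20.5%, 17.1% and 17.5%. Fish oil lay below all 6 arrays of the other fats on 0 and above them on 2 (6.8% and 5.96% of all), and the 8 high-fat arrays lay below chow on 2 and above it on 0 (2.51% and 2.55%). The 2 that were lower with each single diet were those of Insig2, and with olive oil the other two were those of Scarb1.

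**Figure D1:**
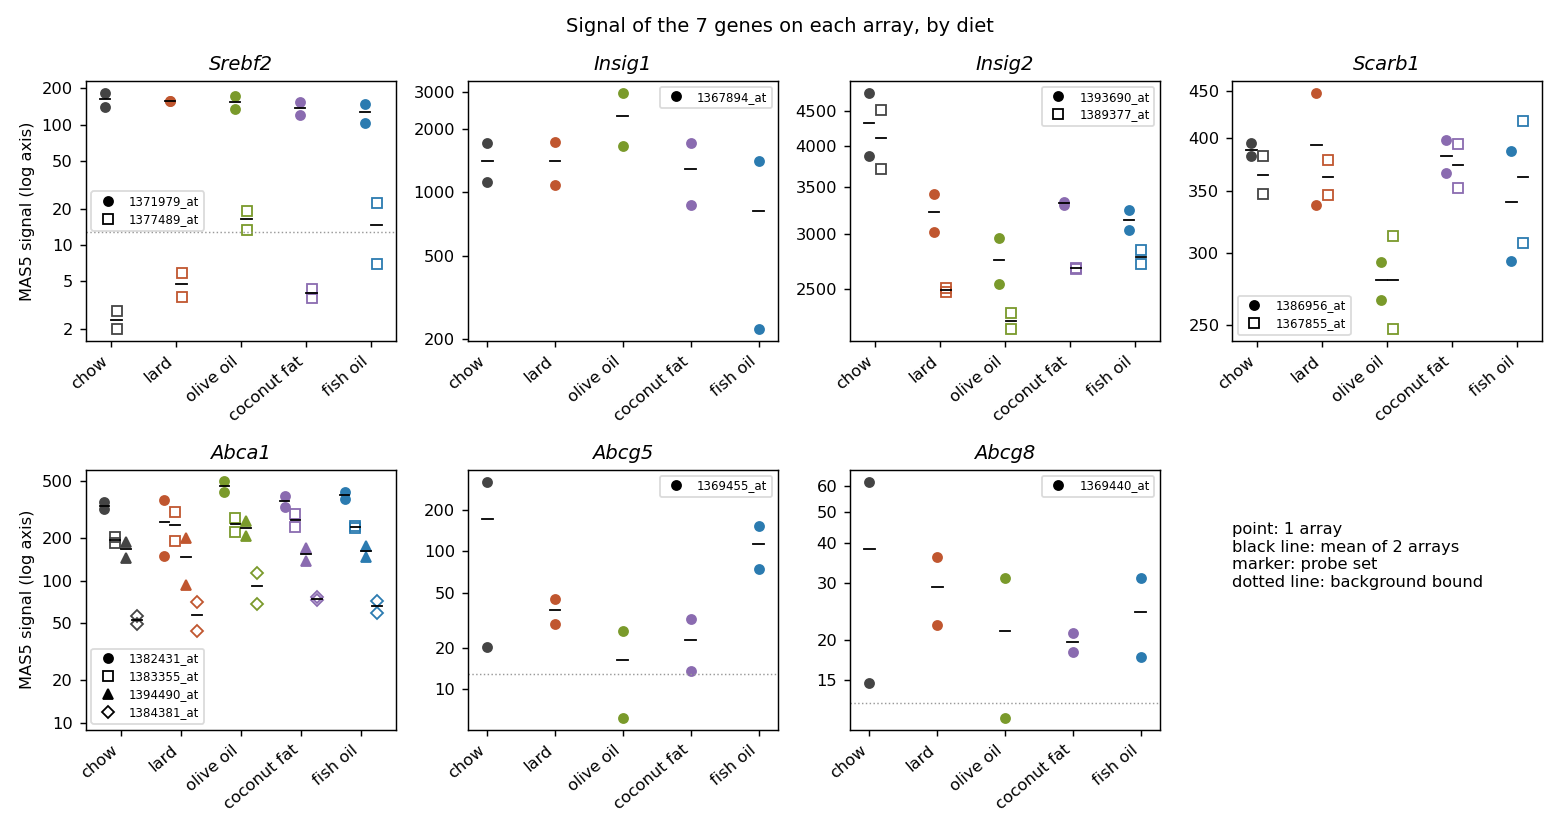
MAS5 signal (log axis) of every probe set of the 7 genes on each of the 10 arrays, by diet. Each point is an array, each black line the mean of 2 arrays, and the dotted line the background bound of 12.8. Both Insig2 probe sets stand higher on the 2 chow arrays than on any of the 8 high-fat arrays. Insig1 differs widely between the fish oil arrays, and Abcg5 and Abcg8 between those of chow and between those of olive oil.

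Insig2, the Insig form that is not itself a classical SREBP target, had the clearest pattern of the 7 genes. In rodent liver an Insig2 transcript is known to be lowered by insulin and to be high in fasting. On probe set 1389377_at the signal was 4509 and 3712 on the chow arrays, 2479 and 2513 with lard, 2310 and 2193 with olive oil, 2685 and 2671 with coconut fat and 2847 and 2713 with fish oil. Both chow arrays therefore lay above all 8 high-fat arrays, and the high-fat diets followed in the order fish oil, coconut fat, lard and olive oil with no overlap between neighbours. The gap between fish oil (2713) and coconut fat (2685) was narrow. The share of all tested probe sets with no overlap between neighbouring diets was not counted. On probe set 1393690_at it was 4773 and 3875 with chow, 3018 and 3424 with lard, 2960 and 2543 with olive oil, 3300 and 3333 with coconut fat and 3039 and 3241 with fish oil. Here too both chow arrays were above all others and olive oil was lowest, but coconut fat, lard and fish oil overlapped. Both Insig2 probe sets, and no other of the 12, were lower on all 8 high-fat arrays than on both chow arrays, an order shown by 2.51% of all tested probe sets.

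On 1389377_at, the fold change of Insig2 on the log2(signal + 3.1) scale was -0.86 (SE 0.13) with olive oil, -0.71 (SE 0.13) with lard, -0.61 (SE 0.13) with coconut fat and -0.56 (SE 0.13) with fish oil, all against chow. These are 1.82-, 1.64-, 1.53- and 1.47-fold lower signals, and limma's adjusted p was 0.0526, 0.218, 0.456 and 0.182. On 1393690_at the log2 fold changes were smaller: -0.65, -0.42, -0.37 and -0.45 in the same order (SE 0.14 for each, limma adjusted p between 0.202 and 0.851). The mean of the 4 high-fat diets against chow gave -0.69 (SE 0.1, limma adjusted p = 0.054) on the first and -0.47 (SE 0.11, limma adjusted p = 0.28) on the second probe set. These comparisons share the 2 chow arrays, so they are not separate evidence. With olive oil against chow, 1389377_at passed in limma with the lowest 60% left out (adjusted p = 0.0468) and with a robust trend (0.0303). It also passed in limma with the dim filter set on the linear mean (0.0486), a setting chosen after seeing the data. The 4 high-fat diets against chow passed under these same settings in limma (adjusted p = 0.0452, 0.0394 and 0.0497). For olive oil against chow, the log2 fold change was -1 without the second chow array and -0.72 without the first. Over all alternatives the adjusted p ran from 0.0303 to 0.372 for olive oil and from 0.0394 to 0.48 for the 4 diets. For any difference among the diets the adjusted p was 0.103 and 0.357 on the 2 probe sets in limma.

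In bulk liver, fewer cells of a type and less RNA per cell cannot be told apart. The summed signal of 7 hepatocyte markers (of 8 listed) was 52998 to 53430 on the chow arrays and 51429 to 61637 on the high-fat arrays, with 0 of 7 at the background bound throughout and a median log2 fold change of 0.02 for the 4 high-fat diets against chow. Its part in the Insig2 values was not tested.

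**Figure D2:**
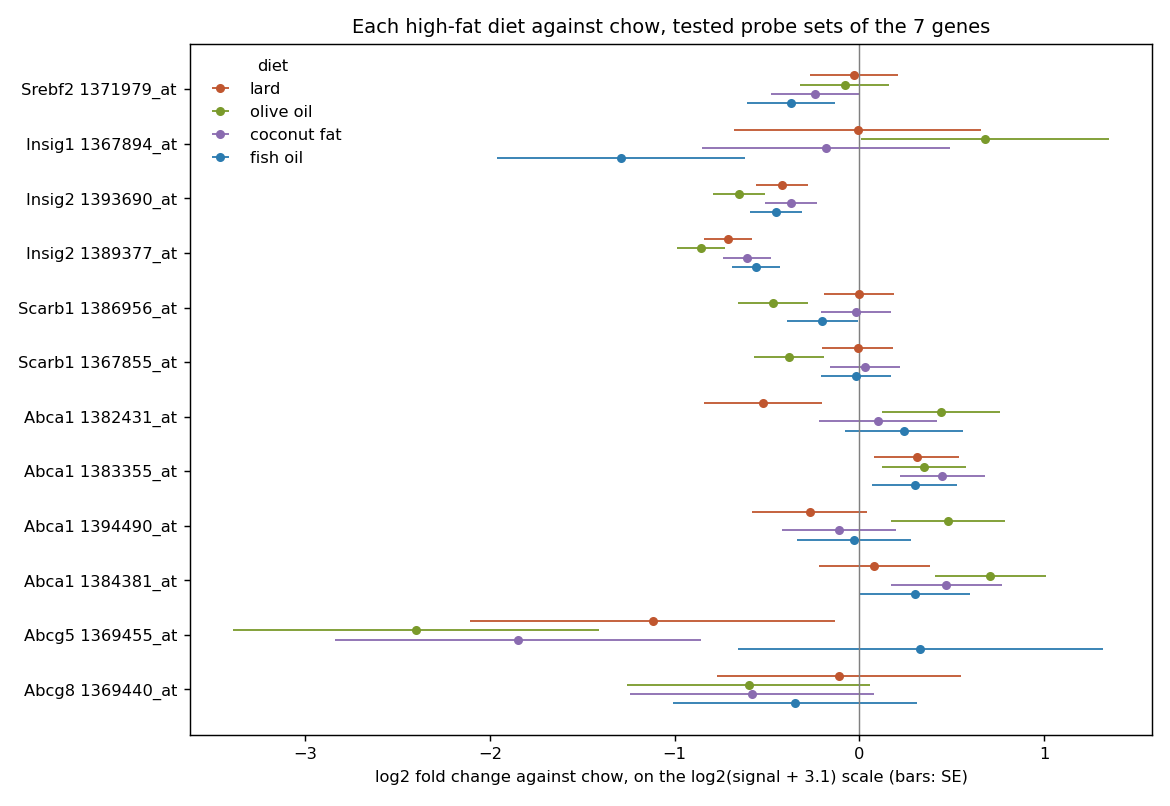
Log2 fold change of each high-fat diet against chow (x axis, on the log2(signal + 3.1) scale) for the 12 tested probe sets, with bars of 1 SE. The Insig2 values lie between -0.86 and -0.37 for all 4 diets on both probe sets, the widest bars are those of Abcg5 (SE 0.99), and no value passed the adjusted threshold.

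Insig1, the Insig form that SREBP itself switches on, had its lowest signal with fish oil, on a single array. The signal of its probe set (1367894_at) was 1117 and 1712 with chow, 1086 and 1743 with lard, 1658 and 2967 with olive oil, 1722 and 869 with coconut fat and 224 and 1407 with fish oil. The first fish oil array was thus far below the rest, the second lay within the range of chow, and the arrays of neighbouring diets overlapped throughout the order of the means. The arrays of fish oil differed 6.28-fold, against a median of 1.24-fold and a 90th percentile of 2.05-fold over all tested probe sets of that diet. The log2 fold change was -1.29 (SE 0.67, limma adjusted p = 0.721) for fish oil against chow and -1.46 (SE 0.54, limma adjusted p = 0.316) against the other fats. Without the first fish oil array these values were 0.03 and -0.14. Without the second they were -2.61 and -2.77, and the latter passed in limma (adjusted p = 0.0415, within a range of 0.0415 to 0.956 over the alternatives). With olive oil, which had the highest mean (2312 ± 925, SD, n = 2), the log2 fold change against chow was 0.68 (SE 0.67, limma adjusted p = 0.835).

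Srebf2, which encodes the SREBP-2 precursor, varied little on its brighter probe set (1371979_at). It read 141 and 184 with chow, 157 and 158 with lard, 134 and 173 with olive oil, 154 and 120 with coconut fat and 104 and 149 with fish oil. The diets overlapped at every step of the order chow, lard, olive oil, coconut fat and fish oil. For fish oil against chow the log2 fold change was -0.37 (SE 0.24, limma adjusted p = 0.813). The second probe set lay at or below the background bound of 12.8, the highest signal of a bacterial control sequence, on 7 of the 10 arrays.

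The array values of Srebf2 and Insig1 were set beside those of the enzymes of cholesterol synthesis. Of these, 18 of 21 listed genes were on the array and tested. For each array the median of these 18 genes was taken after subtracting each gene's own mean over the 10 arrays. It was lowest on the first fish oil array (-0.88 on the log2 scale, 0 of 18 genes above their own mean) and second lowest on the second coconut fat array (-0.37, 2 of 18). Srebf2 and Insig1 were lowest and second lowest on these same arrays. The list median was highest on the second chow (0.66, 17 of 18) and the second olive oil array (0.6, 16 of 18). Srebf2 was highest and second highest there. Insig1 was highest on the latter but only at rank 7 from the lowest on the second chow array. How many of all tested probe sets share these ranks was not counted, so the shared order is a description. The first chow array was at -0.27 with 4 of 18 genes above their mean, so the 2 chow arrays stood on opposite sides of the mean. Insig2 did not follow this order: it was lowest on the second olive oil and highest on the first chow array.

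**Figure D3:**
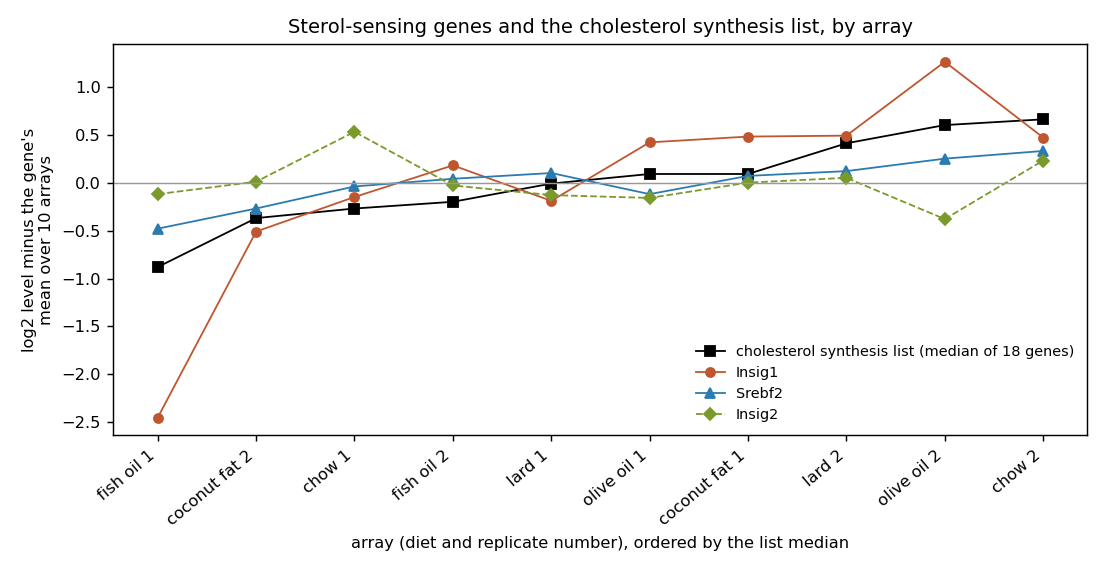
Log2 level of Insig1, Srebf2 and Insig2 (1393690_at) and the median of 18 cholesterol synthesis genes, each minus its mean over the 10 arrays (y axis), with arrays ordered by that median (x axis). Insig1 is at -2.45 and Srebf2 at -0.48 on the first fish oil array, where the list median is -0.88, and Insig2 is highest on the first chow array (0.53).

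Against chow, 17 of the 18 cholesterol synthesis genes had fold changes below 0 with fish oil (median -0.75), and against the other fats all 18 did (median -0.73). Over all tested probe sets 51.5% and 52.6% were below 0, with medians of -0.01 and -0.02. With coconut fat against chow 15 of the 18 were below 0 (median -0.35), beside 52.1% of all tested probe sets. With lard 10 were (median -0.02, beside 44.7%), and with olive oil 7 (median 0.09, beside 48.3%). Only Tm7sf2, a sterol reductase of that pathway, passed, and only for fish oil against chow (log2 fold change -2.85, SE 0.42, limma adjusted p = 0.032). Tm7sf2 was also lower with lard (-1.05), olive oil (-1.37) and coconut fat (-1.24) against chow. All 8 high-fat arrays lay below both chow arrays on it, as on 2.51% of all tested probe sets. For fish oil against the other fats its log2 fold change was -1.63. Against the other fats 0 passed in limma, with 8 lower and 0 higher at an unadjusted p under 0.05, a rule that took 1278 lower and 914 higher of the 18625 tested probe sets (11.8%). Without the first fish oil array the fish oil medians were -0.4 against chow and -0.35 against the other fats, with 14 and 15 of 18 below 0. Without the second chow array the median against chow was -0.28, with 13 of 18 below 0. Tm7sf2 did not pass with no intensity trend (limma adjusted p = 0.232) or a robust one (0.113), nor without either fish oil array, either lard array or the second chow array, and against the other fats 1 of the 18 passed without either olive oil array. The list was chosen with earlier results of these data known and is not independent evidence of its direction.

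Scarb1, the HDL receptor that takes up cholesteryl ester without degrading the particle, had its lowest mean with olive oil on both probe sets. On 1386956_at it read 383 and 394 with chow, 338 and 448 with lard, 267 and 293 with olive oil, 367 and 397 with coconut fat and 387 and 294 with fish oil. On 1367855_at it read 347 and 383 with chow, 378 and 347 with lard, 313 and 248 with olive oil, 394 and 353 with coconut fat and 418 and 308 with fish oil. The olive oil arrays lay below both chow arrays on each probe set, an order that 17.5% of all tested probe sets showed, and the other diets overlapped with one another. The log2 fold change of olive oil against chow was -0.47 (SE 0.19, limma adjusted p = 0.541) on the first and -0.38 (SE 0.19, limma adjusted p = 0.629) on the second probe set. Across the 10 arrays the 2 probe sets correlated at r = 0.64, a description without a test.

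Abca1, which loads cholesterol and phospholipid onto apolipoprotein A-I to start an HDL particle, read highest with olive oil on 3 of its 4 probe sets. The brightest, 1382431_at, was at 356 and 317 with chow, 148 and 368 with lard, 502 and 418 with olive oil, 330 and 392 with coconut fat and 419 and 374 with fish oil. The first lard array was the lowest on this and on the probe sets 1394490_at (92.4) and 1384381_at (44.2), and without it the log2 fold change of lard against chow went from -0.52 (SE 0.32, limma adjusted p = 0.733) to 0.13. On all 4 probe sets both olive oil arrays lay above both chow arrays, which 20.5% of all tested probe sets did. Olive oil against chow gave log2 fold changes of 0.44, 0.35, 0.48 and 0.71 on 1382431_at, 1383355_at, 1394490_at and 1384381_at (SE 0.23 to 0.32, limma adjusted p between 0.575 and 0.759). The 4 probe sets correlated across arrays at r = 0.54 to 0.86. On 1383355_at the order differed: coconut fat had the highest mean (266 ± 40.7, SD, n = 2) and chow the lowest (193 ± 14.4).

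Macrophages and endothelial cells also express Abca1 and Scarb1. The 9 macrophage markers on the array (of 11 listed) summed to 4206 to 4756 with chow, 3488 to 4011 with lard, 3754 to 4734 with olive oil, 3433 to 3732 with coconut fat and 2946 to 3042 with fish oil. With fish oil against chow 8 of 9 had fold changes below 0 and 1 passed in limma, beside 51.5% and 0.156% of all tested probe sets. With olive oil 4 of 9 were below 0, beside 48.3%. The 6 sinusoidal endothelial markers (of 8 listed) summed to 1633 to 1909 with chow, 1405 to 1535 with lard and 1574 to 1653 with olive oil. Their sums were 1775 to 1787 with coconut fat and 1727 to 1832 with fish oil. Of the 5 tested, 4 had fold changes below 0 with lard and 4 with olive oil against chow, and 2 each with coconut fat and fish oil. Over all tested probe sets 44.7%, 48.3%, 52.1% and 51.5% were below 0 in the same order of diets. In each list 0 markers were at the background bound on all arrays, and their part in the Abca1 and Scarb1 values was not tested.

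Abcg5 and Abcg8, the partners of the pump that moves cholesterol and plant sterols into bile, differed widely between the chow arrays and between the olive oil arrays. Abcg5 (1369455_at) read 321 and 20.3 with chow, 29.8 and 45.3 with lard, 26.2 and 6.2 with olive oil, 13.6 and 32 with coconut fat and 152 and 73.9 with fish oil. The first chow array and both fish oil arrays were high, and the second chow array lay among the other fats. The chow arrays differed 15.8-fold, against a 90th percentile of 1.93-fold over all tested probe sets of that diet, so a comparison of Abcg5 with chow rests on which chow array is read. For olive oil against chow the log2 fold change was -2.4 (SE 0.99, limma adjusted p = 0.556), but it was -0.5 when the first chow array was left out and -4.29 when the second was. One of the olive oil arrays was below the background bound. Both fish oil arrays lay above all 6 arrays of the other fats, an order shown by 5.96% of all tested probe sets (log2 fold change 2.12, SE 0.81, limma adjusted p = 0.326).

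Abcg8 (1369440_at) was at 61.9 and 14.7 with chow, 22.2 and 36.1 with lard, 31.2 and 11.5 with olive oil, 18.4 and 21.1 with coconut fat and 31.2 and 17.7 with fish oil. The diets overlapped at every step of the order of means, and the F-test gave a limma adjusted p of 0.947. Like Abcg5 it was highest on the first chow and lowest on the second olive oil array. Unlike Abcg5 it did not set the fish oil arrays apart from the other fats.

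**Figure D4:**
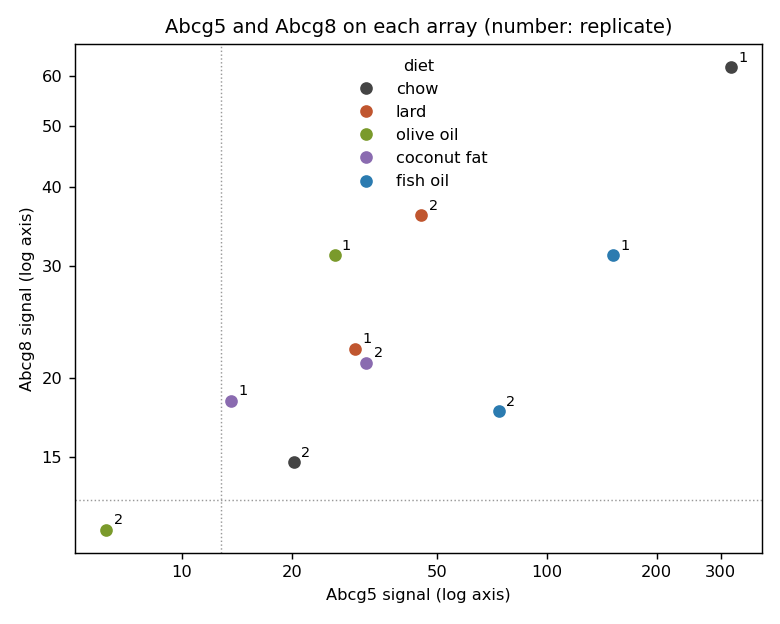
Signal of Abcg5 (x axis) and Abcg8 (y axis) on each of the 10 arrays, both on log axes, coloured by diet with the replicate number beside each point and the background bound of 12.8 dotted. The first chow array is highest on both (321 and 61.9), the second olive oil array is lowest on both (6.2 and 11.5), and the fish oil arrays stand to the right on Abcg5 alone.

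The other genes of the pathway were read from 5 further lists, each gene by its brightest probe set, and 0 of them passed in limma in any comparison. At an unadjusted p under 0.05, 810 probe sets were higher and 751 lower of all 18625 with olive oil (8.38%), and 659 were higher and 762 lower with fish oil against chow (7.63%). Among 10 genes of SREBP sensing and processing (of 12 listed), by that rule 2 were higher with olive oil and, with fish oil against chow, 1 was higher and 1 lower. The lower one was Rnf139, a ubiquitin ligase of the endoplasmic reticulum (log2 fold change -0.79, SE 0.16, limma adjusted p = 0.109). Srebf1, which encodes the lipogenic SREBP-1, had a log2 fold change of 2 with olive oil (SE 0.57, limma adjusted p = 0.352) and 0.96 with fish oil (SE 0.57, limma adjusted p = 0.783), both against chow. It read 206 and 848 on the chow arrays, and without the first of them these values were 0.98 and -0.05, and without the second 3.01 and 1.97. LXR and its targets (11 genes, Srebf1 among them, with 3 and 2 higher and 0 lower by the same rule) had a median of 0.11 with olive oil and 0.14 with fish oil, and their second largest value with olive oil was that of Scd, a fatty acid desaturase (1.99, SE 0.82, limma adjusted p = 0.556). Scd read 548 and 5610 on the chow arrays, and leaving out the first gave 0.32, while leaving out the second gave 3.67, which passed in limma (adjusted p = 0.0379, within a range of 0.0379 to 0.969 over the alternatives).

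The 8 tested genes of lipoprotein uptake and intracellular handling had medians of 0.05 with olive oil and 0.01 with fish oil against chow, with 1 and 2 higher and 0 lower at an unadjusted p under 0.05 in limma. Nceh1, a cholesteryl ester hydrolase, gave 1.15 with fish oil against chow (SE 0.34, limma adjusted p = 0.371). The 8 genes of HDL formation and remodelling had medians of 0.19 and 0.12 (1 and 0 higher, 0 lower by the same rule), with hepatic lipase, Lipc, at 0.43 with olive oil (SE 0.14, limma adjusted p = 0.42). For the 11 genes of bile acid synthesis and biliary export the medians were 0.04 and -0.02 (0 with olive oil, 1 higher and 1 lower with fish oil), and Abcb11, the bile salt export pump, gave -0.63 with fish oil against chow (SE 0.16, limma adjusted p = 0.262). Abcb11 was also lower with lard (-0.51), olive oil (-0.27) and coconut fat (-0.54) against chow. Fish oil against the other fats gave -0.19 for it, with overlap of the arrays. The medians over all tested probe sets were 0.02 with olive oil and -0.01 with fish oil.

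For the brightest probe set of each gene, the 3 most similar of 14246 other named probe sets were found by Pearson's r over the 10 arrays, as a description. Insig2 was followed most closely by Clic4 (r = 0.937), Dpyd (0.933) and Ids (0.906), and Insig1 by Nde1 (0.943), Tubb2a (0.937) and Cd164 (0.936). For Srebf2 these were Actr2-ps1 (0.95), Lgalsl (0.922) and Smim15 (0.921), and for Abcg8 they were Tmed5 (0.953), Aff4 (0.894) and Stag2 (0.891). Abcg5 was followed by both probe sets of Hsdl2 (0.971 and 0.964) and by Rapgef4 (0.922). For Scarb1 they were Brms1, Med1 and Dux4 (0.902 to 0.918), and for Abca1 Arhgef11, Fam78a and Fem1b (0.931 to 0.94). Of these last 6, Brms1, Arhgef11, Fam78a and Fem1b fell below the background bound on at least 1 array.

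All arrays had a 2% trimmed mean signal of 99.7 to 100, and the median signal was 28.7 to 31.9 except on the second lard array, at 36.8. Arrays of the same diet correlated at r = 0.934 to 0.949 over the tested probe sets and arrays of different diets at 0.922 to 0.949. The markers of cell types not named above summed to the following on chow and on high-fat arrays. They were 520 to 542 and 476 to 627 for stellate cells (7 of 7 on the array), 206 to 307 and 124 to 263 for cholangiocytes (5 of 6), and 158 to 194 and 108 to 213 for lymphocytes (4 of 6). For blood cells (4 of 6) the sums were 6303 to 7559 and 4355 to 10379, and for adipocytes (4 of 5) they were 350 to 477 and 418 to 657. With fish oil alone the sums were 497 to 539 for stellate cells, 221 to 263 for cholangiocytes and 108 to 116 for lymphocytes. They were 4355 to 5907 for blood cells and 583 to 657 for adipocytes. Fish oil was thus below both chow arrays for lymphocytes and blood cells and above them for adipocytes.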

How the data were processed

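The deposited values are linear MAS5 signal intensity, 1 per probe set and array, which the authors computed with MAS5, per the submitters' processing notes. The software version is not given in the sources used here. The table has 31099 probe sets, 57 of them controls, which were dropped. Tests used log2(signal + 3.1), where the offset is the 10th percentile of the signals, after leaving out 12417 dim probe sets (the lowest 40% by mean log2 value). Symbols came from the platform annotation. It names 1 gene for 20826 probe sets, several for 436 and none for 9780, and matching gene identifiers to RefSeq altered 0 names.

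The model of limma 3.58.1 (R 4.3.3) had 1 mean for each diet and used all 10 arrays (5 residual and 5.96 prior degrees of freedom, intensity trend). P-values were adjusted by Benjamini-Hochberg over all 18625 probe sets of each comparison. The fit was checked on simulated data. Precision is limited by having 2 arrays per diet. Members, lists and rules were chosen with earlier results of these data known. The lists were 6 pathway lists and 8 cell type marker lists. Named genes were all members and, per list and comparison, up to 4 that passed or otherwise the 2 with the largest fold change. Those given are mainly for olive oil and fish oil. The comparison of the 4 high-fat diets with chow and the filter on the linear mean were added after the values were seen. Alternatives were other scalings, offsets, filters and variance trends, the replicate block, fits of fewer diets, and each array left out.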

Additional observations from a re-analysis of the deposited data

Results flagged for a closer look

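The second Srebf2 probe set (1377489_at) was left out of the test as dim, yet with olive oil both of its arrays (13.3 and 19.3, mean 16.3) lay above the background bound of 12.8 and above both chow arrays (2.8 and 2). With fish oil the arrays were at 22.5 and 6.9. The brighter Srebf2 probe set did not show this order, with olive oil at 134 and 173 and chow at 141 and 184. The difference was not tested.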

How the results depend on the processing

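The count of member probe sets past the threshold was 0 in limma under all settings tried for any difference, lard, coconut fat and fish oil against chow, also without any 1 array. For olive oil against chow it was 1 with the lowest 60% left out, with a robust trend and with the filter on the linear mean, and 0 to 1 without single arrays. For the 4 high-fat diets against chow it was 1 under the same 3 settings, and for fish oil against the other fats it was 0 to 1 without single arrays. The probe set was Insig2 1389377_at in the first and second of these and Insig1 in the last. Alternative values, 882 in all, were computed for 45 fold changes and F values of members and other genes. The 45 leave out Tm7sf2 and Abcb11 in comparisons other than fish oil against chow, and some of their F values are not given above. Of the 882, 863 kept their direction and side of the threshold, 9 newly passed, 7 (all of Tm7sf2) no longer passed and 3 changed sign. These 3 were Abca1 1382431_at with lard against chow (0.13 without the first lard array, -1.16 to 0.13 over arrays left out), Insig1 with fish oil against chow (0.03 without the first fish oil array, -2.61 to 0.03) and Srebf1 with fish oil against chow (-0.05 without the first chow array, -0.05 to 1.97). The replicate block gave 0 member calls in each comparison. The main fit did not pair arrays by replicate number. The deviations of same-numbered arrays correlated between -0.03 and 0.08 over 10 pairs of diets, so no broad shared deviation was seen. These correlations cannot tell whether same-numbered arrays were handled together. With 1 array left out, the lone array of that diet is assumed to vary like the other diets. The fit of only the diets compared was not run for any difference or for the 4 high-fat diets. Leaving out the lowest 60% removed Abcg5 and Abcg8 from the test. What could be seen was limited by 2 arrays per diet and, for Abcg5, Abcg8 and the second Srebf2 probe set, by signals near background.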

Other observations

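Hsdl2, a short-chain dehydrogenase of peroxisomes, came closest to the array pattern of Abcg5, and on both of its probe sets. Its brighter probe set read 1967 and 805 with chow, 1041 and 1093 with lard, 801 and 509 with olive oil, 686 and 835 with coconut fat and 1403 and 1382 with fish oil. As with Abcg5, the first chow array was highest, the second olive oil array lowest, and both fish oil arrays lay above those of the other fats. Fish oil against the other fats gave log2 fold changes of 0.79 (SE 0.27, limma adjusted p = 0.281) and 1.02 (SE 0.34, limma adjusted p = 0.263) on the 2 probe sets. Hsdl2 was chosen for its likeness to Abcg5 after the values were seen.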
